A study of Mus musculus with 9 samples.

Results

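The comparison described here set subclone SCC2 against subclone SCC1, 2 lines that were each grown from a single cell of LLC1, the mouse Lewis lung carcinoma line. It used the 3 SCC1 libraries and the 3 SCC2 libraries, 6 of the 9 RNA-seq libraries of the series. The other libraries were 3 of parental LLC1, whose levels are given beside those of the subclones. Genes were taken if they reached at least 1 FPKM in at least 3 of the 6 subclone libraries, where FPKM is the number of fragments of a gene scaled by its length and by the depth of the library. By that rule 10378 of the 15768 gene symbols were tested. Both subclones were obtained by limiting dilution and, like LLC1, carry the genotype label WT, were labelled as untreated and were grown in DMEM with fetal bovine serum. The subclones had been passaged 5 to 8 times under the same conditions. Each subclone is 1 clone, and whether its 3 libraries are separate cultures is not stated, so p-values reflect only the spread among these libraries, which may be technical. The series title sets growth in the animal, and the tissue around the tumour, against the ability of the cells to divide, and no tumour growth was measured in these files.

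Tumour cells act on the tissue around them through the proteins they release and those they display. Released proteins include growth factors, cytokines, chemokines and their antagonists, the collagens and glycoproteins of the extracellular matrix, and the proteases and inhibitors that remodel it. Displayed proteins include the integrins that hold a cell to matrix, the receptors that read outside signals, and the class I molecules and ligands that T cells and natural killer cells recognise. Lewis lung carcinoma cells are widely used as a transplantable tumour in mice of the same strain background, so these products can meet an intact host.

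The 2 subclones differed at most genes, mainly by small amounts. Of the 10378 genes 7963 (76.7%) passed an adjusted p of 0.05 in limma on log2(FPKM + 1), 3857 (37.2%) with higher and 4106 (39.6%) with lower levels in SCC2. The 6 libraries did not overlap between the subclones at 8120 genes (78.2%). The median absolute difference was 0.23 on the log2 scale, and 83.1% of the genes differed by less than 0.5. A fitted difference of at least 2-fold was found at 350 genes (3.37%), 156 higher (1.5%) and 194 lower (1.87%) in SCC2. Of these, 73 passed the filter only through SCC1 and 58 only through SCC2, so they had to differ, and the 219 others split into 98 higher and 121 lower. With a pseudocount of 0.1 in place of 1 the 2-fold counts were 250 higher and 330 lower, and with a filter of 5 FPKM 97 and 115. Since most genes were called, the size of a difference tells members apart better than its adjusted p. For 300 of the 350 genes the LLC1 mean lay between the means of the subclones, for 46 above both and for 4 below both.

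**Figure D1:**
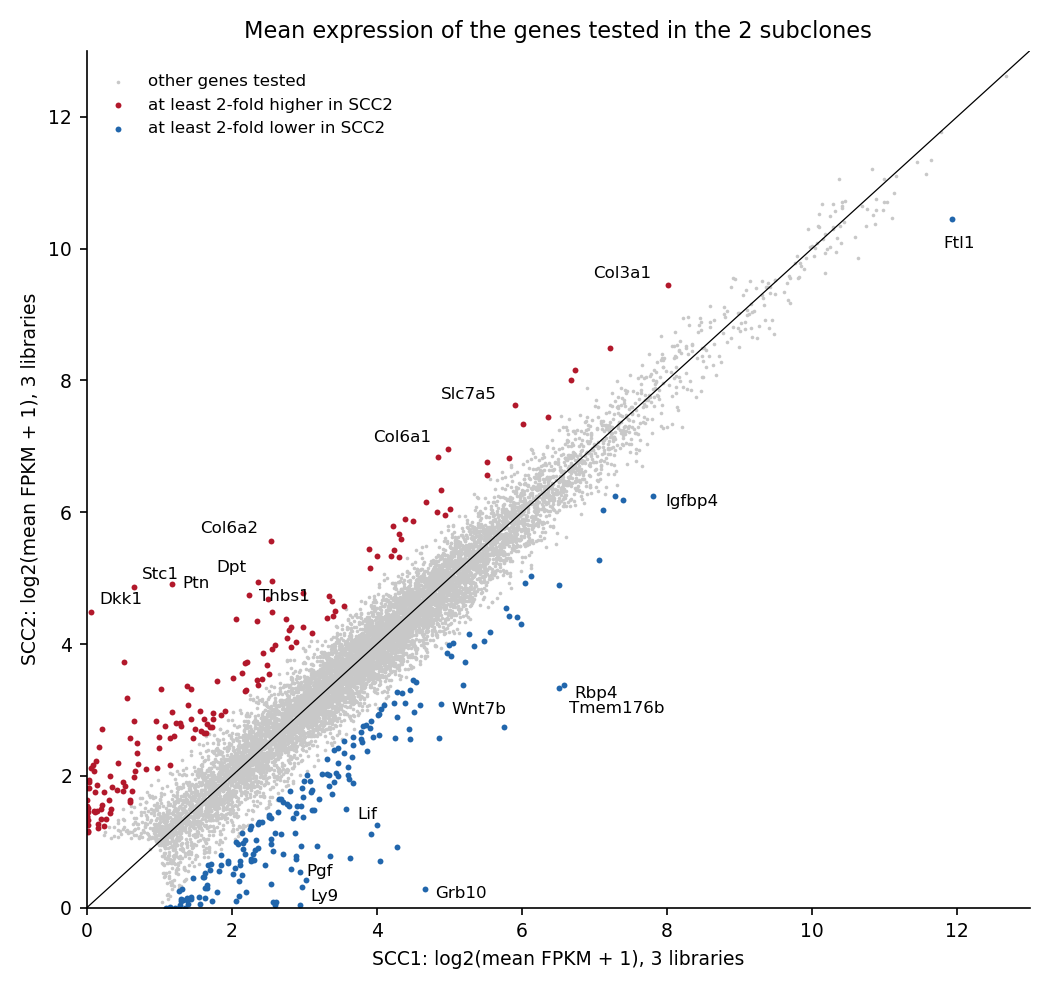
Mean level of each of the 10378 genes tested in SCC1 (horizontal axis) and SCC2 (vertical axis), as log2(mean FPKM + 1) over 3 libraries, with the 156 genes at least 2-fold higher in SCC2 in red, the 194 at least 2-fold lower in blue and the line of equal levels in black. The secreted products Dkk1, Stc1 and Ptn lie far above the line, Dkk1 with a level near 0 in SCC1 and Stc1 and Ptn with low ones, and Grb10, Rbp4 and Tmem176b lie far below it.

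Libraries of one subclone were close to each other, with Spearman correlations across the tested genes of 0.9983 to 0.9986, against 0.9647 to 0.9657 between subclones. Whole fragments worked back from the FPKM values came to 17094808 to 19398657 per library over all 9 libraries. At that depth 3 fragments of a median-length gene came to 0.0447 to 0.0506 FPKM, and means around such values cannot be told apart from 0. The 2 genes just inside the filter were Aspg and Foxo1, whose deciding libraries stood at 1.00313 and 1.00343 FPKM, and the 2 just outside were Ttll5 and Ager, at 0.999334 and 0.996759 FPKM. Of the 5 marker lists, those of lymphocytes and endothelial cells gave no tested gene in either subclone.

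Secreted and surface products were read through 21 gene lists, 12 of secreted and 9 of surface proteins. The median difference over all genes tested was -0.0028, and the shares called were 37.2% higher and 39.6% lower, which is the background for each list below. Together the lists held 407 distinct tested genes, of which 180 were higher and 173 lower in SCC2. Of these 407 genes 75 (18.4%) differed by at least 2-fold, 41 higher and 34 lower, beside 3.37% of all genes tested. The lists were written with earlier results of these data known, so that share is a description of these genes. Among the 211 tested genes of the secreted lists 48 (22.7%) differed by at least 2-fold, and among the 198 of the surface lists 28 (14.1%). Values are means ± SD over 3 libraries unless each library is given, the first of a pair of means is that of SCC1, and differences are SCC2 minus SCC1 in log2(FPKM + 1) with adjusted p from limma. A gene under 1 FPKM in all 3 libraries of one subclone passed the filter through the other alone. Its direction was then fixed by the filter, so its adjusted p adds no support for that direction. The receptors Lrp6, Kremen1, Alk, Sdc3, Fgfr2, Flt1, Nrp1, Tgfbr1, Tgfbr2, Lifr, Il11ra1, Igf1r and Cd47, as partners of leading ligands, and the members Cxcl1, Mmp14, Timp2, H2-K1, H2-D1, Slc2a1, Chac1, Pycr1, Asns, Rb1, Wnt5a, Wnt9a, Kitl, Slc7a11 and Vldlr and the cell type markers were named after their values were seen. For 61 of the 75 genes the LLC1 mean lay between the subclones, and for the other 14 above both.

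**Figure D2:**
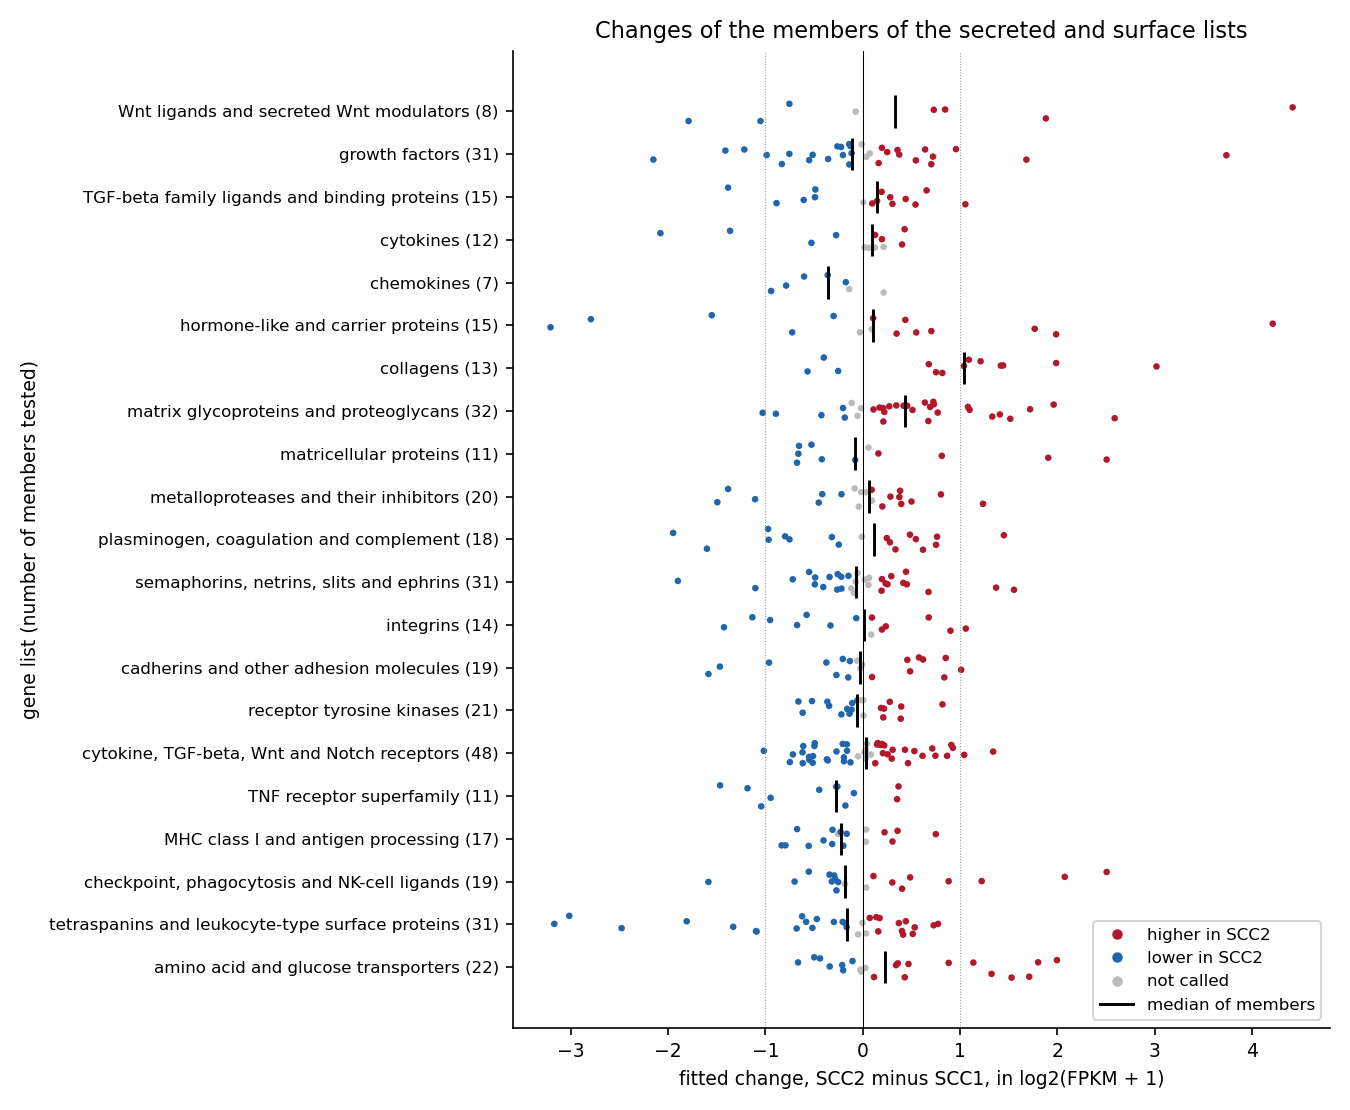
Fitted difference between SCC2 and SCC1, in log2(FPKM + 1), of each tested member of the 12 secreted and 9 surface lists, with members called higher in red, called lower in blue and not called in grey. The black bar is the median of the list, and dotted lines mark 2-fold differences. Collagens have the highest median, 1.04, and chemokines the lowest, -0.36.

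Wnt ligands bind Frizzled receptors with the co-receptors Lrp5 and Lrp6 to stabilise beta-catenin, and secreted proteins of the Dkk and sFRP families interfere with that step. Wnt ligands and secreted Wnt modulators counted 8 tested members, 4 higher and 3 lower in SCC2, 1 not called, with a median difference of 0.33, 2 higher and 2 lower by at least 2-fold. Without the 3 that passed the filter through 1 subclone only, 2 were higher and 2 lower. The leading difference of the comparison was in Dkk1, an antagonist that binds Lrp5 and Lrp6, which stood at 0.0688, 0.04802 and 0.0244 FPKM in the SCC1 libraries and 21.3, 21.7 and 21.2 in the SCC2 libraries. All 3 SCC1 libraries were at the level of a few fragments, and all 3 SCC2 libraries were far above them and above LLC1, at 5.298 ± 0.288 FPKM. The fitted difference was 4.42 (SE 0.043, adjusted p = 8.7e-15), but Dkk1 passed the filter through SCC2 only and had to be higher. Frzb, a decoy receptor that binds Wnt proteins, was higher in SCC2, at 0.941 ± 0.148 FPKM in SCC1 and 6.15 ± 0.458 in SCC2, a difference of 1.88 (SE 0.064, adjusted p = 1.59e-10). Dkk2, a relative of Dkk1, was already well expressed in SCC1 and was also higher in SCC2, at 36.2 ± 0.928 FPKM in SCC1 and 60.7 ± 0.622 in SCC2. Of the 4 Wnt ligands tested, Wnt7b, Wnt9a and Wnt10b were lower in SCC2 and Wnt5a did not pass the test, while all 4 tested modulators were higher. The 3 members let in by 1 subclone alone were Wnt9a, which had to be lower, and Dkk1 and a further modulator, which had to be higher. Wnt7b was measured at 27.7, 28.9 and 28.8 FPKM in the SCC1 libraries and 7.798, 7.63 and 7.13 in the SCC2 libraries. Every SCC2 library was below every SCC1 library, a difference of -1.79 (SE 0.036, adjusted p = 2.72e-12), and LLC1 lay between them at 15.6 ± 0.411 FPKM. Wnt10b fell from 3.74 ± 0.221 to 1.29 ± 0.137 FPKM, a difference of -1.05 (SE 0.071, adjusted p = 6.17e-08).

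On the receiving side, the Wnt co-receptor Lrp5 was higher in SCC2, at 10.6 ± 0.209 FPKM in SCC1 and 22.99 ± 0.311 in SCC2, and so was the receptor Fzd8, at 0.1598 ± 0.0207 FPKM in SCC1 and 1.94 ± 0.128 in SCC2. Lgr6, a receptor for R-spondins, which amplify Wnt signals, was lower, at 3.42 ± 0.0623 FPKM in SCC1 and 1.19 ± 0.106 in SCC2. Lrp6 stood at 14.9 ± 0.249 FPKM in SCC1 and 16.4 ± 0.279 in SCC2, and Kremen1, a co-receptor of Dkk1, at 29.6 ± 0.0731 FPKM in SCC1 and 18.97 ± 1.11 in SCC2. Kremen1 was thus lower in the subclone that expressed Dkk1 (-0.62, SE 0.036, adjusted p = 1.7e-08), and Lrp6 was slightly higher (0.13, SE 0.028, adjusted p = 0.00125). Fzd8 passed the filter through SCC2 only, so it had to be higher without overlap. The SCC1 and SCC2 libraries of Lrp5, Lgr6, Lrp6 and Kremen1 did not overlap either, beside 78.2% of all genes tested.

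Growth factors include heparin-binding cytokines such as pleiotrophin, the fibroblast growth factors and the vascular endothelial growth factors. Ptn, which encodes pleiotrophin, a neurite outgrowth and vessel growth factor, stood at 1.19, 1.34 and 1.24 FPKM in the SCC1 libraries and 28.8, 29.1 and 29.4 in the SCC2 libraries. The SCC2 libraries were 23.2-fold above the SCC1 libraries in mean FPKM and close to LLC1 at 25.6 ± 0.8204 FPKM, and the fitted difference was 3.74 (SE 0.035, adjusted p = 8.7e-15). Its receptors Alk and Sdc3 were near 0 in both subclones, with means of 0 and 0.00202 ± 0.00349 FPKM and 0.0436 ± 0.0119 and 0.04098 ± 0.0104 FPKM in SCC1 and SCC2. Fgf10, a ligand of epithelial growth and branching, was higher in SCC2, at 1.12 ± 0.0645 FPKM in SCC1 and 5.79 ± 0.0929 in SCC2, and its main receptor Fgfr2 was at or under 0.123 FPKM in every subclone library. Vegfd, a lymphatic and vascular growth factor, was also higher, at 7.53 ± 0.239 FPKM in SCC1 and 15.6 ± 0.538 in SCC2. Growth factors had 31 tested members with a median difference of -0.11, of which 12 were higher and 16 lower in SCC2 and 3 not called, 2 higher and 3 lower by at least 2-fold. Leaving out the 3 let in by 1 subclone alone gave 11 higher and 14 lower.

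Growth factors lower in SCC2 were led by Pgf, placental growth factor, a ligand of the receptor Flt1. Pgf was measured at 6.45, 6.63 and 6.14 FPKM in the SCC1 libraries and 0.689, 0.732 and 0.579 in the SCC2 libraries. No SCC2 library came near the SCC1 range, and the fitted difference was -2.15 (SE 0.054, adjusted p = 1.36e-11). Mst1, a ligand of the receptor Ron, fell from 6.74 ± 0.162 to 1.91 ± 0.1397 FPKM, and Tgfa, a ligand of the EGF receptor, from 1.51 ± 0.0527 to 0.0806 ± 0.0317 FPKM. Pgf and Tgfa passed the filter through SCC1 only, so they had to be lower. Of the receptors of Pgf, Flt1 stood at 1.14 ± 0.0472 FPKM in SCC1 and 1.44 ± 0.0723 in SCC2, and the neuropilin Nrp1 at 2.37 ± 0.0729 FPKM in SCC1 and 3.61 ± 0.163 in SCC2. Nrp2, a co-receptor for both semaphorins and VEGF-C, was higher in SCC2, at 13.6, 14.2 and 13.6 FPKM in the SCC1 libraries and 42.8, 42.4 and 42.4 in the SCC2 libraries. SCC2 lay above SCC1, with a difference of 1.55 (SE 0.026, adjusted p = 5.61e-13), and above LLC1, at 34.3 ± 0.749 FPKM.

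TGF-beta and its relatives govern matrix production and immune suppression in tumours. Tgfb1, a ligand that suppresses immune cells and drives fibrosis, was at 18.3, 18.2 and 18.5 FPKM in the SCC1 libraries and 6.04, 6.68 and 6.51 in the SCC2 libraries. The subclones did not overlap, and the fitted difference was -1.38 (SE 0.036, adjusted p = 1.73e-11), with LLC1 between them at 14.03 ± 0.286 FPKM. Its receptor Tgfbr2 was also lower in SCC2, at 15.9 ± 0.7596 FPKM in SCC1 and 11.01 ± 0.357 in SCC2, and Tgfbr1 at 3.796 ± 0.136 FPKM in SCC1 and 3.195 ± 0.202 in SCC2. Bmp4, a morphogen of the same family, was higher in SCC2, at 0.112 ± 0.0361 FPKM in SCC1 and 1.31 ± 0.0869 in SCC2. The latent TGF-beta binding proteins, which hold the ligand in matrix, split: Ltbp3 was higher, at 80.5 ± 0.712 FPKM in SCC1 and 127 ± 0.213 in SCC2, and Ltbp2 lower, at 1.26 ± 0.113 FPKM in SCC1 and 0.221 ± 0.0165 in SCC2. TGF-beta family ligands and binding proteins were 9 higher and 5 lower in SCC2 of 15 tested, with a median difference of 0.15, 1 higher and 1 lower by at least 2-fold. Bmp4 passed the filter through SCC2 only and had to be higher, and Ltbp2 passed it through SCC1 only and had to be lower. Without these 2 members 8 were higher and 4 lower.

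Lif, a cytokine of the interleukin-6 family that signals through gp130, was at 10.9, 11.2 and 10.8 FPKM in the SCC1 libraries and 1.63, 2.02 and 1.87 in the SCC2 libraries. All SCC2 libraries were below all SCC1 libraries, a difference of -2.08 (SE 0.058, adjusted p = 3.16e-11), and LLC1 stood at 3.01 ± 0.246 FPKM. Il11, of the same family, fell from 3.53 ± 0.417 to 0.762 ± 0.198 FPKM (-1.36, SE 0.083, adjusted p = 2.43e-08), but it passed the filter through SCC1 only and had to be lower. The shared receptor gp130, encoded by Il6st, was in turn higher in SCC2, at 16.6 ± 0.0919 FPKM in SCC1 and 31.04 ± 0.596 in SCC2. The ligand-specific receptors Lifr and Il11ra1 were low, at means of 0.00504 ± 0.00501 and 0.361 ± 0.0432 FPKM and 0.689 ± 0.1498 and 2.17 ± 0.251 FPKM in SCC1 and SCC2. Spp1, or osteopontin, among the most abundant secreted products of both subclones, fell from 697 ± 10.3 to 484 ± 10.9 FPKM, and Mif, macrophage migration inhibitory factor, rose from 1093 ± 11.97 to 1473 ± 31.1 FPKM. Cytokines counted 12 tested members, 4 higher and 4 lower in SCC2, 4 not called, with a median difference of 0.09, 2 lower by at least 2-fold. Leaving out the 1 let in by 1 subclone alone gave 4 higher and 3 lower. Chemokines had 7 tested members with a median difference of -0.36, of which 0 were higher and 5 lower in SCC2 and 2 not called.

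Chemokines recruit leukocytes along gradients, and the 5 that were called were all lower in SCC2. Ccl2, which attracts monocytes, was the most abundant, at 146, 140.4 and 147 FPKM in the SCC1 libraries and 90.8, 91.98 and 101 in the SCC2 libraries. The ranges of the subclones did not touch, and the difference was -0.60 (SE 0.037, adjusted p = 2.57e-08). Ccl7, a close relative of Ccl2, fell from 9.41 ± 0.0489 to 5.05 ± 0.526 FPKM, Ppbp from 3.54 ± 0.5003 to 1.36 ± 0.146 FPKM and the neutrophil attractant Cxcl5 from 6.07 ± 0.152 to 4.51 ± 0.0706 FPKM. The count of chemokines called higher was 0 in limma, 0 at an unadjusted p under 0.05 and 0 with limma-voom on fragments. Of the others, Cxcl1 did not pass the test (adjusted p = 0.123 in limma) and overlapped, at 6.59 ± 1.504 and 7.696 ± 0.3304 FPKM. Leaving out SCC1 replicate 2, whose Cxcl1 was the highest of its group, gave 1 chemokine called higher instead of 0.

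Stc1, or stanniocalcin 1, a secreted glycoprotein of calcium and phosphate balance, was at 0.564, 0.634 and 0.512 FPKM in the SCC1 libraries and 27.8, 28.6 and 28.01 in the SCC2 libraries. The SCC2 mean was 49.4-fold that of SCC1, the difference was 4.21 (SE 0.038, adjusted p = 8.7e-15), and LLC1 stood close to SCC2 at 23.7 ± 0.799 FPKM. Igfbp7, a secreted protein that binds insulin and growth factors, was likewise low in SCC1 and expressed in SCC2 and LLC1, at 0.514 ± 0.161 FPKM in SCC1 and 4.99 ± 0.307 in SCC2, with LLC1 at 4.83 ± 0.3302 FPKM. Adm2, a peptide of the adrenomedullin family that widens vessels, was higher in SCC2, at 0.343 ± 0.06396 FPKM in SCC1 and 3.57 ± 0.2900 in SCC2. Hormone-like and carrier proteins were 8 higher and 5 lower in SCC2 of 15 tested, with a median difference of 0.11, 3 higher and 3 lower by at least 2-fold. Stc1, Igfbp7 and Adm2 passed the filter through SCC2 only, so they had to be higher. Leaving out these 3 members gave 5 higher and 5 lower.

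The members lower by 2-fold were carriers and binding proteins. Rbp4, the plasma carrier of retinol, was at 97.2, 90.1 and 97.4 FPKM in the SCC1 libraries and 8.78, 10.2 and 9.19 in the SCC2 libraries. SCC1 exceeded SCC2 by 10.1-fold in mean FPKM, and the difference was -3.21 (SE 0.046, adjusted p = 1.31e-13), with LLC1 between them at 23.4 ± 0.587 FPKM. Selenop, which carries selenium between tissues, fell from 14.1 ± 1.03 to 1.18 ± 0.166 FPKM (-2.79, SE 0.065, adjusted p = 8.14e-12). Igfbp4, which binds insulin-like growth factors and limits their access to the receptor, was the most abundant of these products, at 220.4, 222 and 224 FPKM in the SCC1 libraries and 73.8, 74.6 and 76.8 in the SCC2 libraries. Its libraries were tight in each subclone, and the difference was -1.55 (SE 0.021, adjusted p = 9.7e-14). The receptor Igf1r was at 12.8 ± 0.121 and 12.9 ± 0.435 FPKM, with an adjusted p of 0.832 in limma and overlapping libraries.

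**Figure D3:**
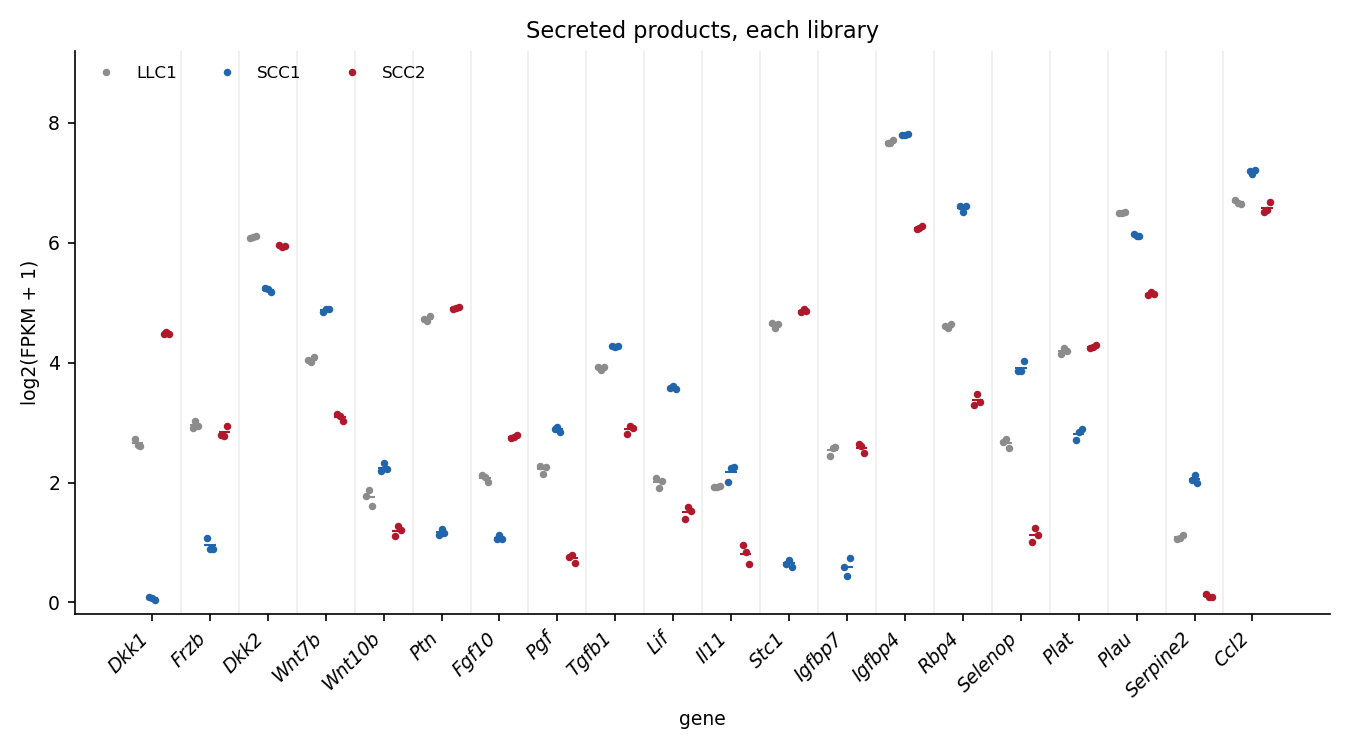
Levels of 20 secreted products in each library, as log2(FPKM + 1), for LLC1 (grey), SCC1 (blue) and SCC2 (red), with bars at the mean of 3 libraries. SCC1 and SCC2 do not overlap at any of these genes, and LLC1 is near SCC2 for Stc1, Ptn, Igfbp7 and Plat and near SCC1 for Igfbp4. Dkk1, Pgf, Il11, Stc1, Igfbp7 and Serpine2 passed the filter through 1 subclone only and could not overlap. Of all genes tested 78.2% did not overlap.

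Collagens build the fibrils, basement membranes and beaded filaments of matrix. Collagens counted 13 tested members, 10 higher and 3 lower in SCC2, with a median difference of 1.04, 7 higher by at least 2-fold. Without the 1 that passed the filter through 1 subclone only, 9 were higher and 3 lower. The summed FPKM of the 13 tested and 22 other collagens with a row in the table ran from 673 to 689 in the SCC1 libraries and 1395 to 1435 in the SCC2 libraries, and Col3a1 had the largest difference in FPKM among the 13. That fibrillar chain, also listed among fibroblast markers, stood at 252, 256 and 262 FPKM in the SCC1 libraries and 707, 705 and 685 in the SCC2 libraries. The SCC2 libraries were all above those of SCC1, with a difference of 1.44 (SE 0.021, adjusted p = 1.5e-13). The chains Col6a1, Col6a2 and Col6a3 of collagen VI, which forms beaded filaments around cells, were all higher. Col6a3 passed the filter through SCC2 only and had to be higher, and Col6a1 and Col6a2 lie on chromosome 10, which had a median difference of 0.28. Col6a2 was at 4.68, 4.72 and 5.04 FPKM in the SCC1 libraries and 46.9, 45.96 and 45.6 in the SCC2 libraries. It differed by 3.02 (SE 0.034, adjusted p = 2.46e-14), Col6a1 rose from 30.5 ± 1.41 to 124 ± 0.864 FPKM (1.99, SE 0.028, adjusted p = 1.14e-13), and Col6a3 from a low level of 0.199 ± 0.0144 to 1.55 ± 0.0257 FPKM. Col8a1 rose from 1.96 ± 0.0618 to 6.91 ± 0.0811 FPKM, the fibril-initiating Col5a1 from 31.2 ± 0.508 to 65.1 ± 1.83 FPKM, and the basement membrane chains Col4a5 and Col4a2 from 2.36 ± 0.04504 to 6.77 ± 0.267 FPKM and from 69.8 ± 0.836 to 118 ± 1.03 FPKM. Of 10 fibroblast markers 3 were tested, and the summed FPKM of the list, mostly Col3a1, was 258 to 269 in SCC1, 693 to 715 in SCC2 and 574 to 599.8 in LLC1. The others were low: Col1a1 and Col1a2, the defining chains of collagen I, were at 0.282 ± 0.0303 and 0.211 ± 0.0243 and 0.0412 ± 0.0282 and 0.139 ± 0.0222 FPKM, Fap was at 0 in all 6 subclone libraries, Pdgfra was at 3.35 ± 0.105 and 3.04 ± 0.0788 and Dcn at 2.34 ± 0.0821 and 2.104 ± 0.383.

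Dpt, or dermatopontin, which binds decorin and fibrils, was at 4.03, 4.56 and 3.77 FPKM in the SCC1 libraries and 29.2, 29.6 and 30.4 in the SCC2 libraries. All SCC2 libraries were above all SCC1 and LLC1 libraries, with a difference of 2.59 (SE 0.05, adjusted p = 2.07e-12) and LLC1 at 6.700 ± 0.216 FPKM. Fbn1, the chain of elastic microfibrils, rose from 3.63 ± 0.0155 to 12.3 ± 0.509 FPKM, and Hspg2, the basement membrane proteoglycan perlecan, from 63.5 ± 1.14 to 161 ± 4.35 FPKM. Cthrc1, Ogn and Omd, of which the last 2 are small leucine-rich proteoglycans, were at or under 0.456 FPKM in every SCC1 library and reached 3.199 ± 0.244, 2.63 ± 0.259 and 2.75 ± 0.165 FPKM in SCC2. Npnt, a ligand of integrin alpha 8, and the collagen cross-linking oxidase Loxl2 rose from 4.11 ± 0.0342 to 9.95 ± 0.279 FPKM and from 2.76 ± 0.201 to 6.95 ± 0.1699 FPKM. Laminin gamma 1, encoded by Lamc1, rose from 48.6 ± 0.153 to 81.1 ± 1.33 FPKM. The member lower by 2-fold was Hapln4, a hyaluronan link protein, at 5.43 ± 0.556 FPKM in SCC1 and 2.14 ± 0.0758 in SCC2. Matrix glycoproteins and proteoglycans had 32 tested members with a median difference of 0.44, of which 24 were higher and 5 lower in SCC2 and 3 not called, 8 higher and 1 lower by at least 2-fold. Leaving out the 3 let in by 1 subclone alone gave 21 higher and 5 lower.

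Matricellular proteins bind matrix and receptors without building the matrix. Thbs1, or thrombospondin 1, an inhibitor of vessel growth that also activates latent TGF-beta, was at 3.78, 3.83 and 3.52 FPKM in the SCC1 libraries and 26.3, 24.7 and 26.3 in the SCC2 libraries. SCC2 was 6.95-fold above SCC1 in mean FPKM, with a difference of 2.51 (SE 0.038, adjusted p = 2.04e-13) and LLC1 between them at 12.6 ± 0.335 FPKM. Smoc2 rose from 0.0191 ± 0.01896 to 2.82 ± 0.0788 FPKM, a level of at most 2 fragments in each SCC1 library, and Sparc from 69.2 ± 0.816 to 122 ± 0.183 FPKM. Cd47, a receptor of thrombospondin and a signal that limits uptake by macrophages, did not pass the test, at 15.2 ± 0.136 and 15.6 ± 0.7896 FPKM (adjusted p = 0.373 in limma, overlapping libraries). Matricellular proteins were 4 higher and 6 lower in SCC2 of 11 tested, with a median difference of -0.08, 2 higher by at least 2-fold. Without the 2 that passed the filter through 1 subclone only, 3 were higher and 5 lower.

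Mmp13, a collagenase, fell from 4.83 ± 0.225 to 1.07 ± 0.09596 FPKM (-1.50, SE 0.049, adjusted p = 1.25e-10) and Mmp19 from 9.78 ± 0.545 to 3.14 ± 0.332 FPKM (-1.38, SE 0.057, adjusted p = 7.92e-10). Adamts10, a protease linked to fibrillin microfibrils, fell from 12.7 ± 0.337 to 5.37 ± 0.274 FPKM. Adamts1, a versican-cleaving protease, rose from 2.08 ± 0.03502 to 6.26 ± 0.2998 FPKM. The membrane protease Mmp14 and its partner inhibitor Timp2 were at 65.2 ± 0.857 and 84.9 ± 0.387 and at 131 ± 2.28 and 173 ± 4.601 FPKM, both higher in SCC2. Metalloproteases and their inhibitors counted 20 tested members, 9 higher and 6 lower in SCC2, 5 not called, with a median difference of 0.06, 1 higher and 3 lower by at least 2-fold. Leaving out the 3 let in by 1 subclone alone gave 8 higher and 4 lower.

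The plasminogen system turns plasminogen into plasmin, which degrades fibrin and matrix, and it showed opposite changes in activators. Plasminogen, coagulation and complement had 18 tested members with a median difference of 0.12, of which 9 were higher and 8 lower in SCC2 and 1 not called, 1 higher and 2 lower by at least 2-fold. Without the 1 that passed the filter through 1 subclone only, 9 were higher and 7 lower. Plau, the urokinase activator, was at 69.6, 68.3 and 67.8 FPKM in the SCC1 libraries and 34.2, 35.3 and 34.3 in the SCC2 libraries. The groups did not overlap, and the difference was -0.97 (SE 0.021, adjusted p = 3.99e-12). Plat, the tissue-type activator, went the other way, at 5.54, 6.17 and 6.44 FPKM in the SCC1 libraries and 18.03, 18.1 and 18.6 in the SCC2 libraries. SCC2 was again clear of SCC1, by 1.45 (SE 0.046, adjusted p = 8.34e-11), and close to LLC1 at 17.3 ± 0.612 FPKM. Serpine2, an inhibitor of thrombin and urokinase, fell from 3.17 ± 0.192 to 0.0782 ± 0.0259 FPKM. Serpinh1, the collagen chaperone Hsp47, which acts inside the cell, rose from 241 ± 0.7898 to 408 ± 1.83 FPKM, and S100a10, a plasminogen docking partner of annexin A2, from 350.0 ± 4.13 to 490.4 ± 3.01 FPKM.

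Ntn1, or netrin 1, a guidance and survival ligand, rose from 21.5 ± 0.446 to 57.3 ± 0.805 FPKM (1.37, SE 0.024, adjusted p = 9.25e-13). Slit3, a ligand of Robo receptors, fell from 5.52 ± 0.179 to 0.752 ± 0.166 FPKM (-1.90, SE 0.064, adjusted p = 1.55e-10), and the semaphorin co-receptor Plxna4 from 4.69 ± 0.0411 to 1.65 ± 0.108 FPKM. Slit3 passed the filter through SCC1 only, so it had to be lower without overlap. The libraries of Ntn1 and Plxna4 did not overlap between the subclones either, beside 78.2% of all genes tested. Semaphorins, netrins, slits and ephrins were 11 higher and 13 lower in SCC2 of 31 tested, with a median difference of -0.07, 2 higher and 2 lower by at least 2-fold. Leaving out the 4 let in by 1 subclone alone gave 9 higher and 11 lower.

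Among surface products, integrins were evenly split. Integrins counted 14 tested members, 6 higher and 7 lower in SCC2, 1 not called, with a median difference of 0.01, 1 higher and 2 lower by at least 2-fold. Without the 2 that passed the filter through 1 subclone only, 6 were higher and 5 lower. Itga3, a laminin receptor chain, was at 43.3, 41.8 and 44.8 FPKM in the SCC1 libraries and 15.8, 15.7 and 15.02 in the SCC2 libraries. SCC2 lay below SCC1 and LLC1, which stood at 45.2 ± 2.36 FPKM, with a difference of -1.43 (SE 0.038, adjusted p = 2.4e-11) from SCC1. Itgb4, a laminin receptor chain of hemidesmosomes, fell from 2.03 ± 0.173 to 0.378 ± 0.0108 FPKM, and Itgb7, best known from lymphocyte homing, from 87.5 ± 1.23 to 44.7 ± 1.45 FPKM. Itga7, a laminin receptor chain of muscle, rose from 7.64 ± 0.143 to 17.01 ± 0.4395 FPKM, and Itgb1, the beta chain shared by the laminin and collagen receptors, from 110.5 ± 0.418 to 177 ± 0.843 FPKM (0.68, SE 0.015, adjusted p = 5.33e-12).

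Nectin2, an adhesion molecule that is also read by immune receptors of T and natural killer cells, fell from 3.97 ± 0.367 to 0.656 ± 0.1598 FPKM (-1.59, SE 0.077, adjusted p = 3.25e-09), and Cadm4 from 2.096 ± 0.544 to 0.109 ± 0.0565 FPKM. The heparan sulfate proteoglycan Gpc1 rose from 55.3 ± 1.29 to 113 ± 1.04 FPKM, the hyaluronan receptor Cd44 from 56.8 ± 0.665 to 102 ± 1.85 FPKM and the syndecan Sdc1 from 54.3 ± 0.157 to 83.9 ± 0.452 FPKM. Nectin2 and Cadm4 passed the filter through SCC1 only, so they had to be lower without overlap. The libraries of Gpc1, Cd44 and Sdc1 did not overlap between the subclones either, beside 78.2% of all genes tested. Cadherins and other adhesion molecules had 19 tested members with a median difference of -0.02, of which 8 were higher and 8 lower in SCC2 and 3 not called, 1 higher and 2 lower by at least 2-fold. Leaving out the 2 let in by 1 subclone alone gave 8 higher and 6 lower.

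The collagen receptors Ddr1 and Ddr2 were divided, Ddr1 falling from 13.6 ± 0.184 to 8.24 ± 0.168 FPKM and Ddr2 rising from 49.7 ± 0.128 to 88.4 ± 0.745 FPKM. Met, the receptor of hepatocyte growth factor, fell from 19.1 ± 0.211 to 12.1 ± 0.356 FPKM, and the Wnt-binding Ryk rose from 30.2 ± 0.699 to 39.9 ± 0.1800 FPKM. Cytokine, TGF-beta, Wnt and Notch receptors were 21 higher and 21 lower in SCC2 of 48 tested, with a median difference of 0.03, 2 higher and 1 lower by at least 2-fold. Without the 6 that passed the filter through 1 subclone only, 17 were higher and 19 lower. Besides Fzd8, Lrp5, Lgr6 and Il6st, the smallest adjusted p in that list belonged to Notch2, a receptor of Delta and Jagged ligands, which rose from 12.8 ± 0.227 to 20.1 ± 0.324 FPKM. Receptor tyrosine kinases counted 21 tested members, 7 higher and 11 lower in SCC2, 3 not called, with a median difference of -0.06.

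The TNF receptor superfamily holds death receptors and co-stimulatory receptors. Tnfrsf21, or death receptor 6, was at 13.5, 14.2 and 14.4 FPKM in the SCC1 libraries and 5.85, 5.67 and 5.29 in the SCC2 libraries. SCC1 was above SCC2 and LLC1, at 5.69 ± 0.239 FPKM, and the difference was -1.18 (SE 0.043, adjusted p = 3.04e-10). The neighbouring decoy receptors for Trail, Tnfrsf22 and Tnfrsf23, whose similar sequences could share reads, fell from 15.6 ± 0.0257 to 7.07 ± 0.493 FPKM and from 10.1 ± 0.245 to 3.01 ± 0.269 FPKM. Tnfrsf12a, the receptor of Tweak, fell from 66.9 ± 0.906 to 48.8 ± 1.42 FPKM. The TNF receptor superfamily had 11 tested members with a median difference of -0.27, of which 2 were higher and 9 lower in SCC2, 3 lower by at least 2-fold. Without the 1 that passed the filter through 1 subclone only, 1 was higher and 9 lower.

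Class I molecules present peptides to CD8 T cells, after the proteasome cuts them and Tap1 and Tap2 carry them into the endoplasmic reticulum. MHC class I and antigen processing were 4 higher and 10 lower in SCC2 of 17 tested, with a median difference of -0.23. With the median of each chromosome removed, 6 instead of 10 members were called lower. B2m, the light chain of every class I molecule, was at 313, 312 and 298 FPKM in the SCC1 libraries and 232, 229 and 235 in the SCC2 libraries. Its libraries did not overlap, with a difference of -0.40 (SE 0.023, adjusted p = 1.12e-08). The immunoproteasome subunit Psmb10 fell from 10.2 ± 0.188 to 5.45 ± 0.272 FPKM and the proteasome activator Psme1 from 64.9 ± 1.62 to 43.8 ± 0.889 FPKM. Tap2 rose from 12.1 ± 0.974 to 20.98 ± 0.755 FPKM. Of the heavy chains H2-K1 was at 8.76 ± 1.04 and 5.09 ± 0.298 and H2-D1 at 98.3 ± 2.97 and 100.5 ± 2.24 FPKM, the first lower in SCC2 and the second with overlapping libraries (adjusted p = 0.277 in limma).

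Beside Thbs1 and Nectin2, Lgals9, or galectin 9, a ligand of the checkpoint receptor Tim-3, rose from 1.81 ± 0.109 to 5.55 ± 0.255 FPKM. Cd24a, a signal against uptake by macrophages and a gene with near-identical copies, was near 0 in SCC1, at 0.135 ± 0.0208 FPKM in LLC1 and at 3.504 ± 0.398 FPKM in SCC2. Ptges, which makes the immunosuppressive lipid prostaglandin E2, fell from 122 ± 2.005 to 82.6 ± 1.31 FPKM (-0.55, SE 0.02, adjusted p = 2.75e-10). Checkpoint, phagocytosis and NK-cell ligands counted 19 tested members, 8 higher and 9 lower in SCC2, 2 not called, with a median difference of -0.18, 3 higher and 1 lower by at least 2-fold. Without the 2 that passed the filter through 1 subclone only, 7 were higher and 8 lower.

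The neighbouring genes Tmem176a and Tmem176b, membrane proteins best known from dendritic cells, had the largest fitted differences in log2(FPKM + 1) among the listed leukocyte-type surface proteins. Tmem176b was at 87.5, 90.01 and 92.8 FPKM in the SCC1 libraries and 9.56, 8.96 and 8.83 in the SCC2 libraries. SCC1 and LLC1, at 107 ± 2.35 FPKM, were high and SCC2 low, with a difference of -3.17 (SE 0.032, adjusted p = 9.94e-15). Tmem176a went with it, from 52.98 ± 1.04 to 5.68 ± 0.458 FPKM. Tspan8, a tetraspanin, fell from 4.95 ± 0.418 to 0.0676 ± 0.05996 FPKM, where SCC1 also exceeded LLC1 at 0.823 ± 0.121 FPKM. Over the alternatives, which include a pseudocount of 0.1, the difference in Tspan8 reached -6.43 and that in Tmem176b -3.30. The Ly6 genes encode small lipid-anchored proteins with near-identical copies that could share reads. Ly6c1 fell from 35.3 ± 1.44 to 9.38 ± 0.659 FPKM and Ly6a, or Sca-1, from 19.4 ± 1.27 to 8.596 ± 0.607 FPKM. Ly6g was at 1.14 ± 0.0751 and 0 FPKM, with 0 fragments in all SCC2 libraries, where 3 fragments would equal 0.175 FPKM. Mrc1, the mannose receptor of macrophages, fell from 2.11 ± 0.195 to 0.235 ± 0.0323 FPKM. Tetraspanins and leukocyte-type surface proteins had 31 tested members with a median difference of -0.17, of which 12 were higher and 16 lower in SCC2 and 3 not called, 7 lower by at least 2-fold. Leaving out the 3 let in by 1 subclone alone gave 12 higher and 13 lower.

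Of 17 macrophage and leukocyte markers 4 could be tested. Mrc1 and Ly6g, which are also in the surface list above, passed the filter through SCC1 only, so they had to be lower in SCC2. The other two, Cd68 at 9.14 ± 1.103 and 3.05 ± 0.236 and Cd14 at 18.4 ± 0.932 and 15.6 ± 0.248 FPKM, were also lower, but Cd14, a gene of chromosome 18, stood at 0.24 with chromosome medians removed. The summed FPKM of the marker list was 29.6 to 33.8 in SCC1, 19.2 to 19.7 in SCC2 and 16.3 to 17.7 in LLC1. Of the 17 markers 10 had a row in the table. Among the defining ones, Csf1r was at 0 in all SCC2 libraries and at or under 0.0266 FPKM in SCC1, Lyz2 was at or under 0.146 FPKM in both subclones, and Cd74 at or under 0.193. The part of other cells in the levels of Mrc1, Ly6g, Cd68 and Cd14 was not tested. Fewer cells that express a gene and less RNA per cell cannot be told apart in bulk libraries, here or for any other gene.

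Of 15 lung epithelium markers 9 had a row in the table and 4 were tested, 1 higher and 3 lower in SCC2. The simple epithelial keratins Krt8 and Krt18, both genes of chromosome 15, fell from 155 ± 3.26 to 75.3 ± 1.74 FPKM and from 295 ± 2.604 to 157 ± 1.53 FPKM, and stood at -0.59 and -0.47 with chromosome medians removed. Krt19, of the same family, fell from 1.27 ± 0.0897 to 0.333 ± 0.06101 FPKM, but it passed the filter through SCC1 only. Hopx, a homeodomain protein of alveolar cells, rose from 1.45 ± 0.202 to 5.94 ± 0.497 FPKM. The summed FPKM of the list, mostly these keratins, was 448 to 458 in SCC1, 239 to 240.2 in SCC2 and 338 to 347 in LLC1. The defining markers were near 0, Sftpc at 0.0214 ± 0.03698 and 0, Nkx2-1 at 0 and 0.00467 ± 0.00808 and Cdh1 at 0.00799 ± 0.00693 and 0 FPKM. The part of these marker levels in the matrix and surface differences was not tested.

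Transporters that bring amino acids and lactate across the membrane differed in one direction at the larger sizes. Amino acid and glucose transporters were 12 higher and 7 lower in SCC2 of 22 tested, with a median difference of 0.23, 6 higher by at least 2-fold. Without the 1 that passed the filter through 1 subclone only, 11 were higher and 7 lower. Slc7a5, the light chain of the large neutral amino acid transporter, was at 60.1, 58.9 and 58.3 FPKM in the SCC1 libraries and 193, 199 and 196 in the SCC2 libraries. SCC2 was above both SCC1 and LLC1, at 103 ± 3.34 FPKM, with a difference of 1.71 (SE 0.024, adjusted p = 1.22e-13). Its heavy chain Slc3a2 rose from 15.1 ± 0.155 to 39.2 ± 0.6595 FPKM, the glycine transporter Slc6a9 from 6.89 ± 0.399 to 26.5 ± 0.6798 FPKM, and the cationic amino acid transporter Slc7a1 from 17.3 ± 0.311 to 39.4 ± 0.433 FPKM. The glutamate transporter Slc1a3 was at or under 0.0155 FPKM in SCC1 and at 1.91 ± 0.0402 in SCC2. Slc16a3, the lactate exporter Mct4, rose from 4.09 ± 0.308 to 19.3 ± 0.445 FPKM (2.00, SE 0.046, adjusted p = 8.14e-12), and the glucose transporter Slc2a1 was at 141 ± 1.59 and 139 ± 2.68 FPKM and did not pass the test.

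**Figure D4:**
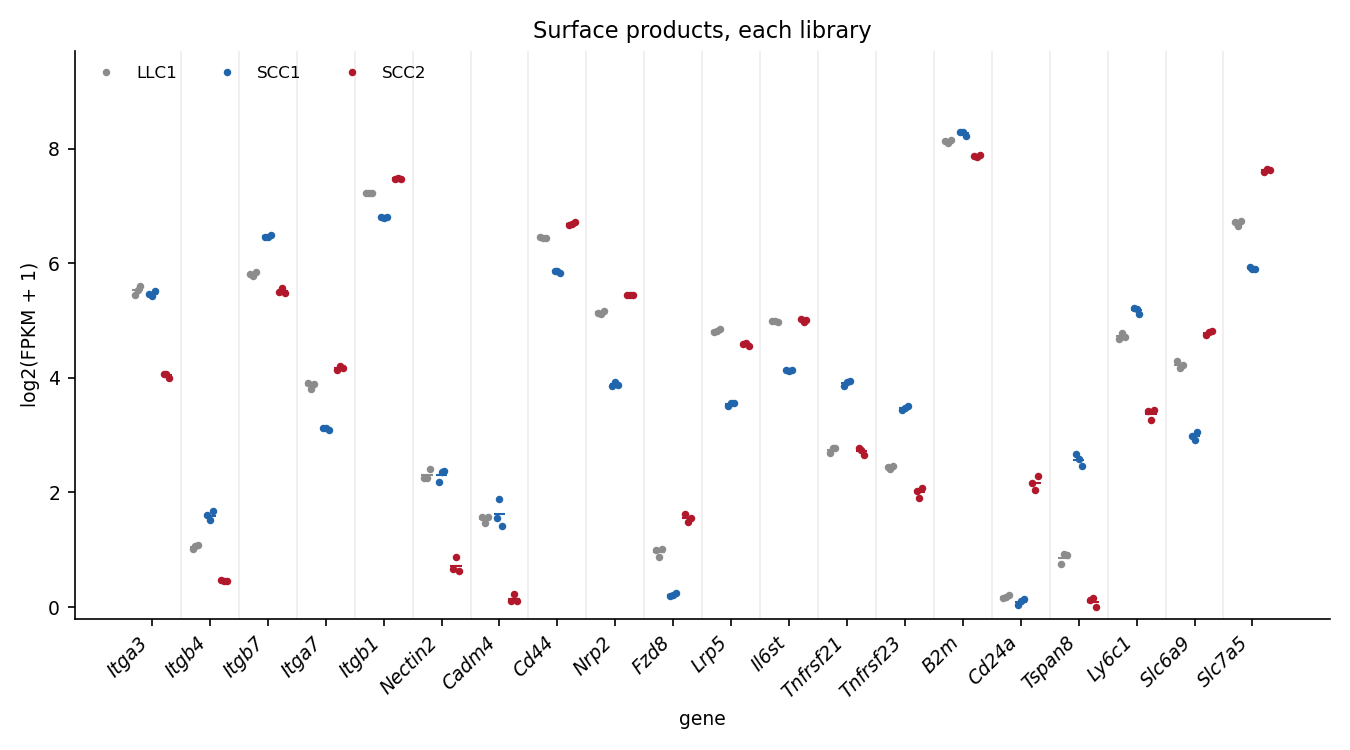
Levels of 20 surface products in each library, as log2(FPKM + 1), for LLC1 (grey), SCC1 (blue) and SCC2 (red), with bars at the mean of 3 libraries. SCC1 and SCC2 do not overlap at any of these genes, Itga3, Nectin2 and Cadm4 are low in SCC2 alone, and Itgb1, Nrp2, Slc7a5 and Slc6a9 are higher in SCC2 than in both other lines. Itgb4, Nectin2, Cadm4, Fzd8, Cd24a and Tspan8 passed the filter through 1 subclone only and could not overlap. Of all genes tested 78.2% did not overlap.

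Genes outside the secreted and surface lists also stood among the leading differences. Grb10, an adaptor that dampens insulin and insulin-like growth factor receptors, was at 25.5, 23.3 and 24.3 FPKM in the SCC1 libraries and 0.211, 0.296 and 0.134 in the SCC2 libraries. LLC1 lay near SCC1, at 25.02 ± 0.456 FPKM, and SCC2 was 114-fold below SCC1 in mean FPKM, with a fitted difference of -4.39 (SE 0.05, adjusted p = 2.46e-14). Grb10 passed the filter through SCC1 only and had to be lower. The same holds for every gene given next as lower in SCC2, except Rundc3a. H1f10, Plac9a and Hacd4, given as higher, passed it through SCC2 only and had to be higher. Also lower in SCC2 were the transmembrane protein Disp2 at 18.3 ± 0.542 FPKM in SCC1 and 0.895 ± 0.0752 in SCC2, the axon growth protein Crmp1 at 15.5 ± 0.581 FPKM in SCC1 and 0.638 ± 0.108 in SCC2, Renbp at 11.4 ± 1.23 FPKM in SCC1 and 0.688 ± 0.128 in SCC2, Rundc3a at 15.04 ± 0.173 FPKM in SCC1 and 1.39 ± 0.127 in SCC2, Dppa4, a factor of pluripotent cells, at 7.17 ± 0.723 FPKM in SCC1 and 0.343 ± 0.0815 in SCC2, Bhlhb9 at 5.07 ± 0.213 FPKM in SCC1 and 0.0303 ± 0.0148 in SCC2 and Tmem98, another transmembrane protein, at 5.13 ± 0.3601 FPKM in SCC1 and 0.0623 ± 0.0771 in SCC2. Ace, the angiotensin-converting enzyme of the cell surface, fell from 6.79 ± 0.215 to 0.241 ± 0.0442 FPKM, and Ly9, a lymphocyte receptor of the Slam family, from 6.64 ± 0.08201 to 0.02903 ± 0.0252 FPKM. Higher in SCC2 were the linker histone H1f10 at 0.432 ± 0.174 FPKM in SCC1 and 12.2 ± 1.26 in SCC2, Plac9a, a small protein with a secretion signal, at 0.156 ± 0.135 FPKM in SCC1 and 5.54 ± 0.396 in SCC2, Ranbp3l at 1.04 ± 0.0685 FPKM in SCC1 and 8.95 ± 0.2001 in SCC2, Hacd4, an enzyme of very long fatty acids, at 0.5703 ± 0.126 FPKM in SCC1 and 6.16 ± 0.318 in SCC2 and the G protein chain Gng11 at 4.67 ± 0.644 FPKM in SCC1 and 24.7 ± 1.73 in SCC2.

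The transporters Slc7a5 and Slc3a2 belong to the targets of Atf4, the transcription factor of the integrated stress response, which raises amino acid uptake and the synthesis of serine, glycine, proline and asparagine. Serine, one-carbon and ATF4 targets counted 37 tested members, 33 higher and 4 lower in SCC2, with a median difference of 0.57, 15 higher by at least 2-fold. Nupr1, a small stress-induced chromatin protein, was at 5.101, 5.42 and 4.11 FPKM in the SCC1 libraries and 30.6, 30.9 and 28.5 in the SCC2 libraries. All SCC2 libraries were above SCC1 and LLC1, at 18.8 ± 0.159 FPKM, with a difference of 2.40 (SE 0.068, adjusted p = 3.42e-11). The mitochondrial folate enzyme Aldh1l2 rose from 3.15 ± 0.292 to 19.8 ± 0.2699 FPKM, the factor Atf5 from 27.6 ± 0.122 to 114 ± 2.77 FPKM, the serine enzyme Psat1 from 147 ± 1.76 to 359.9 ± 5.48 FPKM and the proline enzyme Aldh18a1 from 44.9 ± 0.742 to 107 ± 0.5500 FPKM. Members of the list with the motif described next included Chac1, which degrades glutathione, at 4.88 ± 0.06299 and 21.4 ± 0.3705, the proline enzyme Pycr1 at 4.38 ± 0.242 and 13.5 ± 0.3997 and the asparagine synthetase Asns at 80.8 ± 1.08 and 174 ± 3.23 FPKM.

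On that list, 11 members hold in their promoters a match to the element through which Atf4 and its C/EBP partners are known to act. The 4 of them with the largest differences are shown, and the others differed by -0.24 to 0.82. Each run is the 250 bases before the gene's start in RefSeq on GRCm38.p6, in the direction of the gene, with the match to TGATGNAA on either strand in capitals.
Nupr1, chr7:126625471-126625720, minus strand: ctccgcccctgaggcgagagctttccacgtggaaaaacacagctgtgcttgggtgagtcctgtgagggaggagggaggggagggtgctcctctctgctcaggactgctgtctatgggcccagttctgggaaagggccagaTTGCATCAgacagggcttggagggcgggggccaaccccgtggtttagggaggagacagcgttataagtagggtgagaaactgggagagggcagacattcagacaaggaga
Chac1, chr2:119350992-119351241, plus strand: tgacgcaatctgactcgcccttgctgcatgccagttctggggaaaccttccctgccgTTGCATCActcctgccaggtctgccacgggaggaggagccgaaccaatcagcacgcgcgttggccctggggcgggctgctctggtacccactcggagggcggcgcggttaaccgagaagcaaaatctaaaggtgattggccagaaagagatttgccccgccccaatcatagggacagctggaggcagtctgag
Pycr1, chr11:120643749-120643998, minus strand: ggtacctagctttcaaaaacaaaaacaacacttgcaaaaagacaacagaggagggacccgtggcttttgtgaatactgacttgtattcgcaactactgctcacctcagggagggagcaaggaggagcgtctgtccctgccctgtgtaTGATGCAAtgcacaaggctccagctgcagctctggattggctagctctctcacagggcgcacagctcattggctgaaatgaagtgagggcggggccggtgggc
Asns, chr6:7693210-7693459, minus strand: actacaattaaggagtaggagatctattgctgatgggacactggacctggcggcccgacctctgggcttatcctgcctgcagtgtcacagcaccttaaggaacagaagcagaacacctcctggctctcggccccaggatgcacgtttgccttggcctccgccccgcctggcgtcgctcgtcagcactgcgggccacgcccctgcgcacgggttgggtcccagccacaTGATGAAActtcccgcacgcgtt

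The capitals in Nupr1 and Chac1 read TTGCATCA, the motif on the opposite strand, and begin at -110 and -193 from the start. Those in Pycr1 and Asns read TGATGCAA and TGATGAAA and begin at -103 and -23. Promoters were matched for 31 of the 37 tested members, and 11 of them (35.5%) held the motif, beside 190 of the 8418 promoters of all tested genes that matched (2.26%). The list was written to hold targets of Atf4, so a share above that of all genes is partly set by how it was made. The members with the motif were not all higher in SCC2: Slc7a11 and Vldlr, which hold it, differed by -0.20 and -0.24, and Psat1 and Atf5, with large differences, do not hold it in this window. A match is a description of the sequence and shows no binding.

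Nrf2 drives genes of glutathione and iron handling. Hmox1, which degrades heme, was at 60.03, 60.9 and 58.6 FPKM in the SCC1 libraries and 20.8, 20.7 and 19.2 in the SCC2 libraries. The subclones were clear of each other, by -1.52 (SE 0.032, adjusted p = 3.46e-12), and LLC1 was close to SCC2 at 24.6 ± 0.467 FPKM. Ftl1, the ferritin light chain and a gene with near-identical copies, fell from 3901 ± 49.8 to 1394 ± 13.8 FPKM, and Gclm, of glutathione synthesis, from 24.7 ± 0.795 to 14.2 ± 0.369 FPKM. Tkt, of the pentose phosphate pathway, rose from 76.4 ± 1.17 to 113 ± 1.49 FPKM. NRF2 targets had 29 tested members with a median difference of -0.30, of which 5 were higher and 20 lower in SCC2 and 4 not called, 3 lower by at least 2-fold.

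Of the targets of p53, the factor that halts division after DNA damage, Ccng1 fell from 167 ± 0.451 to 72.1 ± 1.08 FPKM, Btg2, an inhibitor of division, from 11.7 ± 0.431 to 2.703 ± 0.114 FPKM, Trp53inp1 from 18.03 ± 0.692 to 4.99 ± 0.193 FPKM and Gtse1 from 69.1 ± 1.04 to 35.6 ± 0.713 FPKM. Pmaip1, which encodes the death-promoting protein Noxa, fell from 9.19 ± 0.225 to 0.7302 ± 0.0667 FPKM, but it passed the filter through SCC1 only and had to be lower. Cdkn1a, the cell cycle inhibitor p21, was at 168, 174 and 177 FPKM in the SCC1 libraries and 105, 106 and 106 in the SCC2 libraries. It was lower in every SCC2 library, with a difference of -0.71 (SE 0.027, adjusted p = 4.27e-10), and LLC1 was at 115 ± 4.401 FPKM. P53 targets were 3 higher and 19 lower in SCC2 of 25 tested, with a median difference of -0.42, 4 lower by at least 2-fold. Leaving out the 1 let in by 1 subclone alone gave 3 higher and 18 lower.

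The proliferation marker Mki67 was at 68.03, 68.9 and 67.5 FPKM in the SCC1 libraries and 79.1, 75.5 and 75.02 in the SCC2 libraries. SCC2 was higher without overlap, but only by 0.17 (SE 0.026, adjusted p = 9.06e-05). Cdk1, the mitotic kinase, rose from 31.6 ± 0.793 to 42.8 ± 0.917 FPKM, Cdc20 from 67.5 ± 0.863 to 90.7 ± 0.497 FPKM and the inhibitor Cdkn2c from 8.93 ± 0.541 to 20.1 ± 1.53 FPKM. Ccnd2 fell from 48.3 ± 0.499 to 33.6 ± 0.369 FPKM. Pcna, the replication clamp, fell from 232 ± 3.43 to 219 ± 3.72 FPKM, a difference of -0.08 (SE 0.018, adjusted p = 0.00132) that turned to 0.07 with chromosome medians removed. Ccnd1 was at 190.1 ± 2.56 and 187 ± 1.22 and Myc at 237 ± 1.87 and 229.9 ± 5.19 FPKM, with overlapping libraries and adjusted p of 0.182 and 0.0822 in limma. With chromosome medians removed, Myc, a gene of chromosome 15, stood 0.40 above the median of its chromosome. The only member of the list 2-fold lower was Rb1, at 7.198 ± 0.608 FPKM in SCC1 and 3.02 ± 0.249 in SCC2, and Cdkn2c was the only one 2-fold higher. Cell cycle counted 49 tested members, 17 higher and 27 lower in SCC2, 5 not called, with a median difference of -0.08, 1 higher and 1 lower by at least 2-fold.

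Cholesterol synthesis had 26 tested members with a median difference of -0.12, of which 7 were higher and 14 lower in SCC2 and 5 not called. Sqle fell from 113 ± 1.901 to 78.01 ± 1.36 FPKM and the regulator Srebf1 from 43.7 ± 0.652 to 31.5 ± 0.508 FPKM. Over the alternatives, which include removal of chromosome medians, the difference in Sqle ran from -0.55 to -0.08 and that in Srebf1 from -0.48 to -0.25. YAP and TAZ targets were 10 higher and 7 lower in SCC2 of 19 tested, with a median difference of 0.08. Tead4 fell from 13.6 ± 0.553 to 8.46 ± 0.05397 FPKM, Ptpn14 from 26.00 ± 0.171 to 18.9 ± 0.173 FPKM and Wwc1 from 15.4 ± 0.165 to 11.1 ± 0.634 FPKM, and Foxf2 rose from 10.1 ± 0.584 to 15.7 ± 0.681 FPKM. Interferon-stimulated genes counted 15 tested members, 6 higher and 7 lower in SCC2, 2 not called, with a median difference of -0.06. Leaving out the 1 let in by 1 subclone alone gave 6 higher and 6 lower. Irf1 fell from 15.1 ± 0.586 to 8.93 ± 0.321 FPKM and Bst2 from 24.9 ± 0.553 to 15.2 ± 0.966 FPKM, and Ifit2 rose from 4.14 ± 0.0492 to 7.66 ± 0.181 FPKM. None of these 3 lists moved in one direction.

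Levels also differed by chromosome. The median difference over the tested genes of a chromosome was -0.46 for chromosome 18 (262 genes) and -0.44 for chromosome 15 (425 genes), and it was 0.30 for chromosome 4 (602 genes), 0.28 for chromosomes 10 and 16 and 0.26 for chromosome 13. Chromosomes 6, 11, 17 and 2 were at -0.24, -0.22, -0.19 and -0.16, chromosome 19 at 0.17, and the others within 0.07 of 0. On chromosome 15, 366 of 425 genes were called lower and 23 higher, and stretches of about 60 neighbouring genes had medians from -0.49 to -0.35. The 3 SCC2 libraries had medians between -0.4425 and -0.4381 there, and the SCC1 libraries between -0.0032 and 0.0046 around their own mean. Chromosome 12 had a median of -0.01 but was divided: the 3 stretches from Rab10 to Fut8, which end at position 77475998 on GRCm38, had medians of 0.22, 0.26 and 0.15, and the 3 from Gphn, which starts at position 78217325, to Sp4 had medians of -0.25, -0.25 and -0.29.

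**Figure D5:**
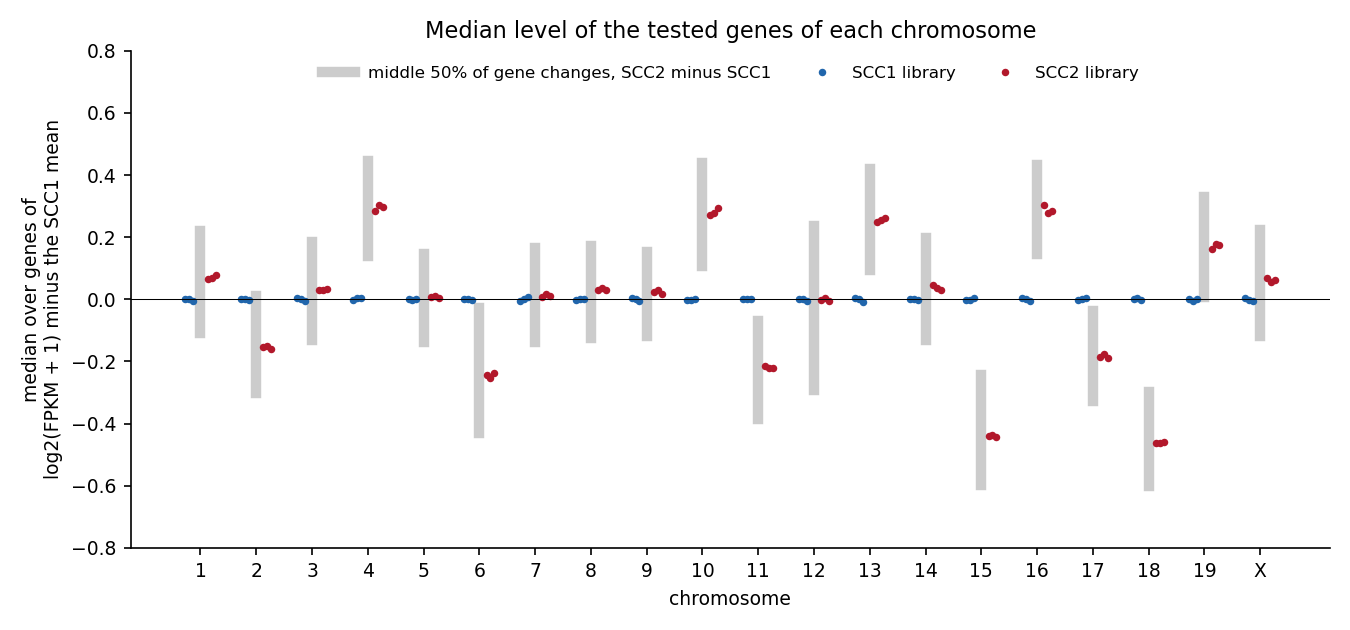
For each chromosome, the median over its tested genes of log2(FPKM + 1) minus the SCC1 mean of the gene, in each SCC1 library (blue) and SCC2 library (red), with a grey bar for the middle 50% of the gene differences between SCC2 and SCC1. The SCC2 libraries lie together, lowest on chromosomes 15 and 18 and highest on chromosomes 4, 10, 13 and 16.

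Several secreted and surface genes lie on the shifted chromosomes, among them Wnt7b, Wnt10b, Itgb7, Ly6a, Ly6c1 and Selenop on chromosome 15 and Col6a1, Col6a2, Itga7 and Kitl on chromosome 10. With the median of each chromosome removed, 213 of the 217 called genes that were picked by the naming rule or are given with values kept their direction and their call. Pcna, Cd14 and Ifngr2 reversed, and Ifnar2 lost its call. The number of DNA copies was not measured in these files, so its part in the chromosome medians was not tested.

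Some genes were near 0 in one subclone and expressed in the other. Counting genes under 0.1 FPKM in all 3 libraries of one subclone and at 1 FPKM or more in all 3 of the other, a rule set after the values were seen, 18 were near 0 in SCC1 and 10 near 0 in SCC2. The 18 lay on 13 chromosomes and included Dkk1, Cd24a, Smoc2 and Slc1a3. The surface proteins Ptprk, a receptor phosphatase that binds its own kind on neighbouring cells, Rxfp1, the relaxin receptor, and Lingo3 were also among them, at 0.0204 ± 0.0161 and 2.51 ± 0.202, 0.00624 ± 0.00541 and 1.605 ± 0.116 and 0.0701 ± 0.00809 and 1.77 ± 0.0816 FPKM, with the developmental factors Hoxa11 at 0.00785 ± 0.0136 and 2.11 ± 0.334 and Lhx2 at 0.01001 ± 0.00867 and 1.75 ± 0.0349. The 10 near 0 in SCC2 included Ly9, Ly6g, the synaptic adhesion protein Slitrk5 at 1.43 ± 0.149 and 0 and the intestinal retinol carrier Rbp2 at 1.45 ± 0.342 and 0.0266 ± 0.04602 FPKM. The fitted differences of these genes depend on the pseudocount and are no bounds. LLC1 means lay between the subclones for 25 of the 28 genes.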

How the data were processed

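RNA was sequenced from untreated cells of the mouse line LLC1 and its subclones SCC1 and SCC2, with 3 libraries each, grouped by the sample titles. The authors deposited FPKM, made with cufflinks after Trimmomatic and hisat2 from 150 bp paired ends, per the series' design text. The sources used here do not give tool versions or the use of strand. GRCm38 and mm10 are named in the submitters' processing notes. The protocol fields name a SMARTER kit and the design text a TruSeq Stranded kit. An FPKM depends on every other gene in its library, and overlapping genes or near-identical copies are uncertain.

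Levels were tested as log2(FPKM + 1), a pseudocount of 1, by limma 3.58.1 under R 4.3.3. The model held all 9 libraries with line as its sole factor, used the trend and robust settings of eBayes, and was two-sided. Benjamini-Hochberg adjustment ran over 10378 genes, with a threshold of 0.05. Fold changes on this scale understate those of low genes. Fragments were worked back from the FPKM steps with Python 3.11.15, numpy 2.4.6 and pandas 2.3.3: all 12270 genes above 0 in every library came out whole within 0.001 fragments. Floors in fragments cover counting error only. Since FPKM are not counts, limma-voom on these fragments was an alternative only, and it called 3935 genes higher and 4148 lower. Pairs of libraries of one subclone had chi-square values of 1.2 to 1.47 per gene, where counting error alone would give about 1. The libraries were kept apart in the fit, but such values cannot tell separate cultures from repeats of one RNA. Figures used matplotlib 3.10.9.

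Members, gene lists (33, with 1268 entries, of which 1075 matched a symbol) and tests were chosen with earlier results of these data known. The text names the 15 leading genes in each direction that were called, had no overlap between libraries, reached a mean of 5 FPKM in the higher subclone and had no predicted or clone name. A few genes that these rules pick are not reported here. The text also names, of each secreted and surface list, the members differing by at least 2-fold and up to 4 with the smallest adjusted p, up to 4 of each other list, and 6 cell cycle genes: Cdkn1a, Myc, Ccnd1, Cdk1, Pcna and Mki67. Rae1 was removed from the checkpoint list after the values were seen, since the symbol denotes an RNA export factor and not the natural killer cell ligand. Positions came from RefSeq on GRCm38.p6, which matched 15665 symbols directly and 3 through synonyms. A planned check of CpG content in promoters was void, since 77.8% of the 18 genes near 0 in SCC1 had a promoter in that table, under the 80% needed. Classes from protein sequences were not used here. The alternatives tried were pseudocount, filters, scaling, the fit, a replicate block, removal of chromosome medians and leaving out each library.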

Additional observations from a re-analysis of the deposited data

How the results depend on the processing

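The counts of genes called higher and lower kept within 1.5 times their values under all 19 alternatives. Leaving out each library in turn gave 3687 to 3867 genes higher, 3912 to 4102 lower, 154 to 159 higher by at least 2-fold and 193 to 201 lower by at least 2-fold. The 2-fold counts moved under 3 alternatives: to 97 higher and 115 lower with a filter of 5 FPKM, which tests fewer genes; to 266 and 350 with limma-voom on fragments; and to 250 and 330 with a pseudocount of 0.1, which shrinks low genes less. Without the filter 4275 genes were higher and 4599 lower, and with chromosome medians removed 3505 and 3493. Replicate numbers did not pair the samples: same-numbered SCC1 and SCC2 libraries had correlations of deviations of -0.035, 0.025 and -0.008, and a replicate block gave 3837 genes higher and 4063 lower, with 156 and 194 at 2-fold.

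Of 226 tested genes that were picked by the naming rule or are given with values, 217 were called, and 212 of the 226 kept their direction and their side of the threshold under every alternative. With chromosome medians removed Pcna stood at 0.0741, Myc at 0.4012, Cd47 at -0.2435, Cd14 at 0.2418 and Ifngr2 at -0.0572, each reversed in sign. Myc and Cd47 then passed the threshold, as did Dcn (-0.3927), H2-D1 (0.2236) and Slc2a1 (-0.3231), and Ifnar2 (0.0192) and Ifngr2 no longer did. Ccnd1 passed with quantile normalization (-0.0544), and Myc passed with quantile normalization (-0.0965), limma-voom and without SCC2 replicate 3 (-0.0620). Cxcl1 passed with the replicate block and without SCC1 replicate 2. Foxo1 lost its call without SCC1 replicate 1 or SCC2 replicate 3, Ereg without SCC1 replicate 1, SCC1 replicate 3 or SCC2 replicate 2, and Pdgfra with quantile normalization and without SCC1 replicate 2, SCC1 replicate 3, SCC2 replicate 2 or SCC2 replicate 3. Of 56 counts of list members 24 moved by over 1.5 times under some alternative, 22 of them only under another filter, which changes how many members are tested. These 22 lay in the lists of Wnt, TGF-beta, cytokine, hormone-like, collagen, matricellular, metalloprotease, semaphorin, adhesion, receptor, TNF receptor, checkpoint, transporter, interferon, ATF4 and MHC (higher) members: collagens higher went from 10 to 16 without a filter, and receptors lower from 21 to 9 with 5 FPKM. The other 2 were MHC members lower, 6 with chromosome medians removed, and chemokines higher, 1 with the replicate block or without SCC1 replicate 2. A stricter setting of the planned protein sequence classes was not run, since no protein sequences were used here. Levels under about 0.05 FPKM are not told apart from 0 at this depth.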

Other observations

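Further members of the lists, chosen after their values were seen, are given here as values. Ligands of the EGF receptor were lower in SCC2, beside 39.6% of all genes tested; Tgfa passed the filter through SCC1 only and had to be lower, and Egf and Epgn did not pass it. Hbegf fell from 9.57 ± 0.541 to 4.97 ± 0.758 FPKM, Areg from 36.7 ± 1.21 to 21.4 ± 1.57 FPKM, Btc from 1.46 ± 0.243 to 0.926 ± 0.231 FPKM and Ereg from 5.82 ± 0.183 to 5.202 ± 0.0647 FPKM, and Egfr, the receptor itself, from 5.39 ± 0.0863 to 4.03 ± 0.162 FPKM. Those 4 ligands and Egfr had adjusted p in limma from 7.55e-08 to 0.0203, and Ereg lost its call without SCC1 replicate 1, SCC1 replicate 3 or SCC2 replicate 2. Removing chromosome medians took Hbegf, on chromosome 18, from -0.83 to -0.37 and Egfr, on chromosome 11, from -0.35 to -0.13. Areg, Btc and Ereg, on chromosome 5, then stood at -0.77, -0.37 and -0.15, and all 4 ligands and Egfr were still called. The chains of the interferon receptors were higher in SCC2, Ifnar1 at 6.78 ± 0.234 FPKM in SCC1 and 9.74 ± 0.213 in SCC2, Ifnar2 at 3.16 ± 0.121 FPKM in SCC1 and 4.11 ± 0.0316 in SCC2, Ifngr1 at 13.5 ± 0.848 FPKM in SCC1 and 18.5 ± 0.634 in SCC2 and Ifngr2 at 16.6 ± 0.512 FPKM in SCC1 and 19.5 ± 0.814 in SCC2, with adjusted p in limma from 1.81e-07 to 0.000197. Ifngr1 lies on chromosome 10 and the others on chromosome 16, each with a median difference of 0.28. With chromosome medians removed Ifnar1 was at 0.19 and Ifngr1 at 0.16, both still called, while Ifnar2 at 0.02 and Ifngr2 at -0.06 were not. Of the clotting regulators, 3 at the cell surface were lower in SCC2: tissue factor, encoded by F3, fell from 33.96 ± 0.701 to 19.1 ± 0.591 FPKM, thrombomodulin, encoded by Thbd, from 7.27 ± 0.0552 to 3.91 ± 0.321 FPKM, and the protein C receptor Procr from 7.23 ± 0.232 to 3.19 ± 0.1904 FPKM. Enpp2, or autotaxin, which makes the lipid mediator lysophosphatidic acid, fell from 13.2 ± 0.238 to 7.58 ± 0.297 FPKM, and Ptgs2, the inducible cyclooxygenase upstream of Ptges, from 31.2 ± 0.145 to 18.8 ± 0.0836 FPKM. Removing chromosome medians took Enpp2, on chromosome 15, from -0.72 to -0.28 and Ptgs2, on chromosome 1, from -0.70 to -0.77. Raet1e, a ligand of the natural killer receptor NKG2D with near-identical copies, rose from 2.57 ± 0.265 to 5.57 ± 0.287 FPKM.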
